A study of Caenorhabditis elegans with 2 samples.

Results

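The set described here consists of 1093 weaker promoter peaks of NHR-237, a nuclear hormone receptor, in embryos of the nematode Caenorhabditis elegans. They were selected on their peak calls from 30000 peaks that were called with the replicates combined, the pooled list. Each member overlapped no peak of the list filtered by IDR (irreproducible discovery rate, a procedure that keeps peaks that rank alike between replicates). Each had its summit within 100 bp of a summit in the list of replicate 1 and of one in the list of replicate 2. Each also lay in a promoter window, from 500 bp upstream to 200 bp downstream of where a protein-coding transcript begins. Of 28038 pooled-list peaks on the nuclear chromosomes outside the IDR list, 6824 had such a match in replicate 1, 15285 in replicate 2 and 3257, or 11.6%, in both. Of these 3257 peaks, 1093, or 33.6%, were in promoters.

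The chromatin came from whole mixed-stage embryos of strain OP228, which carries the unc-119 allele ed3 on chromosome III and the integrated transgene wgIs228 for NHR-237 tagged with eGFP, an enhanced green fluorescent protein. The samples form 1 group of 2 biological replicates of pooled males and females, with the same genotype and no treatment named in the labels. The cells in which the transgene is active were not given in the sources used here, and no sample without the tagged protein was analysed here. All but the IDR list were deposited with background regions left in. The list of replicate 1 has 10872 entries, and those of replicate 2 and of the pooled peaks have exactly 30000 each. Whether the lists were cut at a set length was not given in the sources used here, and the read depth of each library is unknown. Peak lists hold no expression values, so the labelled stage could not be checked against marker genes.

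Nuclear hormone receptors are transcription factors with a zinc-finger DNA-binding domain and a ligand-binding domain, and many recognise short hexamers such as AGGTCA. The family is greatly expanded in C. elegans, and most of its members have no known ligand. In chromatin immunoprecipitation of many factors, promoters of broadly expressed genes give strong peaks, and peaks under the reproducibility threshold are usually set aside.

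The members were set against 1013 IDR promoter peaks and against 4716 weaker promoter peaks, also outside the IDR list, that lacked a match in at least 1 replicate and are called unreplicated here. Positions are on build ce11. Peaks are the units of every test. The p-values therefore say nothing of variation between embryo preparations.

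The following member sequences were read on the forward strand of ce11 from the WBcel235 reference. They are the members of highest pooled signal on chromosomes II to V and X that hold each of the 4 motifs with the largest excess over their own flanks. Each spans 100 bp centred on the summit, except that of aakg-5, which was shortened to 94 bp so as not to run more than 30 bases past its 5′ end. Capitals mark the motif, on either strand. The first pair holds GCGTCTC, named the promoter core motif in the plots, the next pair holds GCGCGAA, an E2F-like site, the pair after it holds TTGCAC, and the last pair holds the repeat GAGAGA.
T20F7.1: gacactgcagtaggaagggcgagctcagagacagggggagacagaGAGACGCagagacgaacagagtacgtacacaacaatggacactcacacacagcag
nhr-58: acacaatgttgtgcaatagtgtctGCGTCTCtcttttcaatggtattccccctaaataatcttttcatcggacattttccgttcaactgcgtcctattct
K02F3.2: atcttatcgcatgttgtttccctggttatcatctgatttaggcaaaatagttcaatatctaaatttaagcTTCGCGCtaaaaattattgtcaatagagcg
set-2: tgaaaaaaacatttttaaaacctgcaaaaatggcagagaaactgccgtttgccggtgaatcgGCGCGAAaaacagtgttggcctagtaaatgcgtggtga
aakg-5: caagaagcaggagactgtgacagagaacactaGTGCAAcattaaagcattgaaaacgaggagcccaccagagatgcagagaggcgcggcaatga
smu-2: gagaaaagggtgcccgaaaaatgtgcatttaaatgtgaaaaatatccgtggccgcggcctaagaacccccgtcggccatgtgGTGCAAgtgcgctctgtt
hrg-1: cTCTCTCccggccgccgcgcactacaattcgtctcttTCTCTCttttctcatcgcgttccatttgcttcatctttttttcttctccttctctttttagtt
zip-1: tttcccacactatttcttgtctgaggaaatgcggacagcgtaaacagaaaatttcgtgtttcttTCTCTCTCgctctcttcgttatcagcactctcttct

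These 8 windows lie at chrX:16872580-16872679 (T20F7.1), chrV:532175-532274 (nhr-58), chrIII:845647-845746 (K02F3.2), chrIII:4930357-4930456 (set-2), chrII:9975095-9975188 (aakg-5), chrII:3482326-3482425 (smu-2), chrX:4016277-4016376 (hrg-1) and chrIII:12335570-12335669 (zip-1). Their GC content was 55% at T20F7.1, 40% at nhr-58, 33% at K02F3.2, 43% at set-2, 50% at aakg-5, 52% at smu-2, 45% at hrg-1 and 42% at zip-1. The windows of aakg-5 and smu-2 are also those of the highest pooled signal on these chromosomes.

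Each peak has a signal value from the authors' peak caller, which here ranks peaks within a list. In the pooled list the members had signals of 21.8 to 72.4, with a median of 48.5. IDR promoter peaks had 72.6 to 793, with a median of 107, and unreplicated weaker promoter peaks had 19.5 to 72.2, with a median of 26.1. The members ranked from 1629 to 24175 in the pooled list, with a median rank of 3248. The highest member signal of 72.4 and the lowest IDR promoter signal of 72.6 are adjacent because the IDR list ends there. These values chose the members and are given as a description.

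In replicate 1 the matched peaks of the members had signals of 16.6 to 49.8 (median 23.01), against a median of 52.6 at the 989 IDR promoter peaks with a match there. In replicate 2 they had 10.8 to 55.3 (median 22.98), against a median of 58.2 at 995 IDR promoter peaks. A member was seldom near the top of both replicate lists, which follows largely from the rule, since peaks that overlap the IDR list were left out. Among the first 1626 peaks of a replicate list, as many as the IDR list holds, were 79 members in replicate 1 and 72 in replicate 2. The single member among the first 1626 of both lay 341 bp upstream of F44E2.9, with signals of 38.2 in replicate 1 and 39.9 in replicate 2, and 943 members, or 86.3%, were among them in neither. Across the 1093 members, Spearman's rho between the replicate signals was 0.268 and Pearson's r of their log2 values was 0.240. Across 971 IDR promoter peaks matched in both, Spearman's rho was 0.617. These coefficients describe peaks that share libraries, and the member range is cut by the selection on pooled signal.

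**Figure D1:**
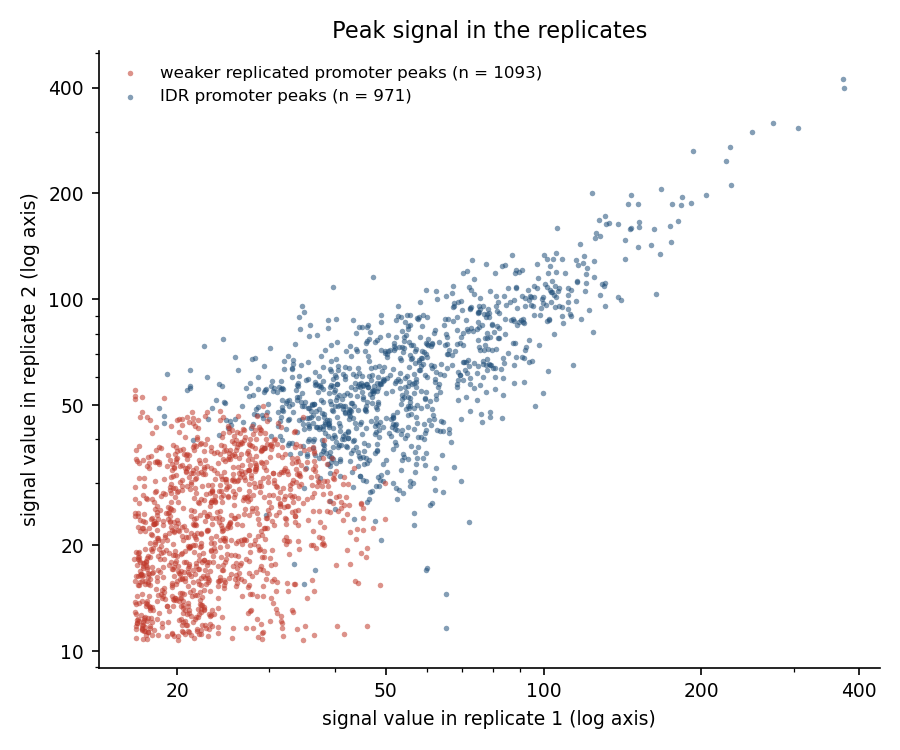
Signal value of each peak in replicate 1 (horizontal) and replicate 2 (vertical), both on log axes, for weaker replicated promoter peaks (red, n = 1093) and IDR promoter peaks matched in both replicates (blue, n = 971). The members fill the corner from 16.6 to 49.8 in replicate 1 and 10.8 to 55.3 in replicate 2, and the IDR promoter peaks extend from there along the diagonal.

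The deposited q-values separate few members from background in each library. Of the 1093 members, a q-value under 0.05 was given to 108 in replicate 1, to 208 in replicate 2 and to 15 in both. The upper quartile of their −log10 q-value was 0.712 in replicate 1 and 1.07 in replicate 2. Matched unreplicated peaks had upper quartiles of 0.368 and 0.319 in that order. Matched IDR promoter peaks had lower quartiles of 1.87 and 2.64, so at least 75% of them were under 0.05 in each replicate. These values are a description with no test. The distance between matched summits, which the rule limits to 100 bp, had a median of 17 bp in replicate 1 and 16 bp in replicate 2, against 15 bp in each for the unreplicated peaks matched there, and 356 members, or 32.6%, lay within 20 bp in both. At the limit of the rule, 37 members had their farther match over 95 and up to 100 bp away, and 57 weaker promoter peaks missed the limit by up to 10 bp. No 2 members shared a summit in either replicate. Only 25 members, or 2.29%, had an IDR summit within 1000 bp, and the median distance to the nearest IDR summit was 17841 bp.

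The strongest members, chosen by pooled signal, fell at genes of varied function. The highest, at chrII:9974941-9975336, lay 14 bp upstream of aakg-5 (WBGene00011276), a gamma subunit of AMP-activated protein kinase, with signals of 47.3 in replicate 1 and 22.4 in replicate 2. The next, at chrI:11323134-11323529, lay between the divergent genes cdk-9, the kinase of the elongation factor P-TEFb, and hxk-2, a hexokinase, with 28.2 in replicate 1 and 42.6 in replicate 2. The peak 82 bp upstream of sut-6 had 29.5 in replicate 1 and 41.7 in replicate 2. In these 3 the replicates order differently, since aakg-5 was higher in replicate 1 and the others in replicate 2.

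The peak between phb-1, a prohibitin of the inner mitochondrial membrane, and Y37E3.8 had 24.1 in replicate 1 and 48.3 in replicate 2. The peak of nxf-1, the mRNA export receptor, shared with C15H11.11, had 24.96 in replicate 1 and 43.7 in replicate 2. The peak shared by dnj-29, a DnaJ protein, and ndua-2, a subunit of respiratory complex I, had 22.6 in replicate 1 and 34.9 in replicate 2. All of them were higher in replicate 2, although the scale of the signal value need not be the same in both lists.

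Several of the strongest members had closer values in the replicate lists, whose scales need not be the same. The gene smu-2 (WBGene00004896, peak at chrII:3482178-3482573), a splicing factor, had 36.6 in replicate 1 and 32.6 in replicate 2. The bZIP factor gene zip-1 (WBGene00006986, peak at chrIII:12335422-12335817) had 36.4 in replicate 1 and 38.004 in replicate 2, and W04A8.1 had 35.8 in replicate 1 and 37.7 in replicate 2. The heme transporter gene hrg-1 (WBGene00019830, peak at chrX:4016129-4016524) had 39.8 in replicate 1 and 32.0 in replicate 2. The adenylyl cyclase gene acy-3 had 37.7 in replicate 1 and 29.5 in replicate 2, whereas R02F2.9, with its summit 2 bp upstream of the 5′ end, had 26.7 in replicate 1 and 42.8 in replicate 2. Pooled signals of these 12 members were 72.1 to 72.4.

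The 3 weakest members were at C54D1.7 (pooled signal 21.8, with 22.5 in replicate 1 and 14.9 in replicate 2), at suf-1, a subunit of the cleavage stimulation factor (22.98, with 19.5 and 14.3 in that order), and at rfc-1, the large subunit of the clamp loader (23.1, with 16.8 and 12.4). The last pair lay 90 bp and 24 bp downstream of the 5′ end. The gene nhr-237 itself had no member, no IDR peak and no unreplicated weaker peak in its promoter window. The promoter of unc-119 held 1 unreplicated weaker peak, with a pooled signal of 21.3, and no member.

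By the rule every member lies from 500 bp upstream to 200 bp downstream of a 5′ end. Closeness to genes was therefore fixed in advance, and the other sets share this window. Within it, the median summit was 143 bp before the nearest start of a protein-coding transcript. It was 171 bp before it for IDR promoter peaks and 155 bp for unreplicated weaker peaks. The middle 50% of members lay between 274 and 51 bp upstream. Over 100 and up to 200 bp upstream lay 25.1% of members, 32.6% of IDR promoter peaks and 16.6% of unreplicated weaker peaks. From the 5′ end to 200 bp downstream lay 14.9% of members, 7.11% of IDR promoter peaks and 25.4% of unreplicated weaker peaks.

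**Figure D2:**
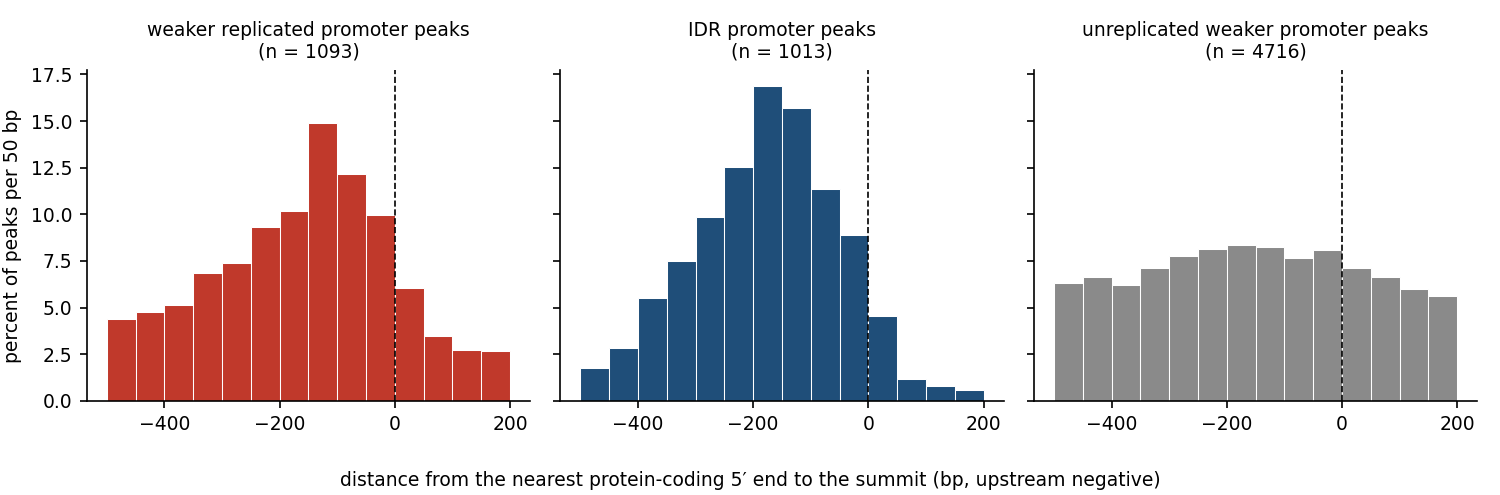
Percent of peaks per 50 bp (vertical) by distance from the nearest protein-coding 5′ end to the summit in bp, upstream negative (horizontal), for weaker replicated promoter peaks (left), IDR promoter peaks (middle) and unreplicated weaker promoter peaks (right). The dashed line is the 5′ end, upstream of which lie 85.1%, 92.9% and 74.6% of summits from left to right, with a near-flat distribution in the right panel.

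Members differed from IDR promoter peaks in 6 of 8 annotation features (75%, Fisher's exact test, two-sided, Benjamini-Hochberg adjusted p under 0.05 over the 8). They were less often in the windows of genes on opposite strands, that is in divergent promoters. The count was 169 of 1093 members, or 15.5% (95% Clopper-Pearson interval 13.4 to 17.7), against 328 of 1013 IDR promoter peaks, or 32.4% (odds ratio 0.382, 95% interval 0.308 to 0.474, adjusted exact p = 4.05e-19). A summit in a coding exon was found for 7.14% of members and 1.18% of IDR promoter peaks (odds ratio 6.41, 3.44 to 13.01, adjusted exact p = 5.72e-12). A summit in an intron was found for 16.1% of members and 8.49% of IDR promoter peaks (odds ratio 2.07, adjusted exact p = 2.12e-07). A summit upstream of the nearest 5′ end was found for 85.1% of members and 92.9% of IDR promoter peaks (odds ratio 0.437, adjusted exact p = 2.75e-08).

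The remaining differences from IDR promoter peaks were smaller. The nearest gene had another gene of the same strand ending within 1000 bp upstream for 29.6% of members and 23.9% of IDR promoter peaks (odds ratio 1.34, adjusted exact p = 0.00588). That arrangement includes, without marking them, the downstream genes of operons. The X chromosome held 13.5% of members and 10.1% of IDR promoter peaks (odds ratio 1.399, adjusted exact p = 0.0202), beside 13.7% of protein-coding genes. The central 50% of the autosomes held 60.3% of autosomal members and 59.9% of autosomal IDR promoter peaks (odds ratio 1.02, 0.840 to 1.23), and windows of tRNA, snoRNA or snRNA genes held 1.92% of members and 3.06% of IDR promoter peaks (odds ratio 0.621, 0.337 to 1.12), and neither passed. Among the members in the upper 50% by pooled signal, the coding exon and upstream differences no longer passed (odds ratios 2.35 and 0.699, adjusted exact p = 0.079 and 0.103), nor did that of a same-strand gene upstream (1.17, adjusted exact p = 0.227). Against the lower 50% of IDR promoter peaks by signal, the X chromosome difference (odds ratio 1.37, adjusted exact p = 0.0982) and that of a same-strand gene upstream (1.27, adjusted exact p = 0.0892) no longer passed. The same-strand difference also failed with the upper 50% of each replicate list (1.08, adjusted exact p = 0.587).

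Against unreplicated weaker promoter peaks the members again differed in 6 of 8 features (75%), mostly in the other direction. Divergent promoters held 15.5% of members and 5.13% of unreplicated peaks (odds ratio 3.38, 2.73 to 4.19, adjusted exact p = 6.68e-27). Summits in coding exons were 7.14% of members and 14.9% of unreplicated peaks (odds ratio 0.437, adjusted exact p = 1.31e-12), and summits in introns were 16.1% of members and 23.2% of unreplicated peaks (odds ratio 0.636, adjusted exact p = 3.76e-07). Upstream summits were 85.1% of members and 74.6% of unreplicated peaks (odds ratio 1.94, adjusted exact p = 1.11e-13). The members were thus between the other sets in the shares of divergent, upstream, coding exon and intron summits. The tRNA, snoRNA or snRNA windows (1.92% of members, 0.912% of unreplicated peaks, odds ratio 2.13, adjusted exact p = 0.0144) and the central 50% (60.3% of members, 56.5% of unreplicated peaks, odds ratio 1.17, adjusted exact p = 0.0451) passed by less. Without replicate 1, so that a match in replicate 2 alone was enough, these were 0.967 (adjusted exact p = 0.899) and 1.14 (adjusted exact p = 0.0518).

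By chromosome, member density per Mb was highest on III and lowest on X. Chromosome III had 14.3 members per Mb (95% exact Poisson interval 12.4 to 16.4) and 14.7 IDR promoter peaks per Mb. Chromosome I had 12.3 members per Mb (10.6 to 14.2) and 15.2 IDR promoter peaks per Mb. Chromosome V had 9.75 members per Mb (8.46 to 11.2) and 7.26 IDR promoter peaks per Mb, and X had 8.35 members per Mb (7.06 to 9.81) and 5.76 IDR promoter peaks per Mb.

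Motif content was first compared within each member, between 100 bp around the summit and a pair of 50 bp flanks whose centres lie 200 bp to either side (exact McNemar test, two-sided, adjusted over 20 motifs, either strand). Of the 20 motifs, 6, or 30%, were more frequent at the centre and 6, or 30%, less frequent. GCGTCTC was in 6.95% of centres and 1.37% of flanks (76 members had it at the centre alone and 15 in the flanks alone, a ratio of 5.07, 95% interval 2.89 to 9.49, adjusted exact p = 1.10e-09), and in 1.08% of all 161879 promoter tiles of 100 bp. GAGAGA was in 18.4% of centres and 8.87% of flanks (ratio 2.25, 1.73 to 2.95, adjusted exact p = 2.20e-09), and in 6.41% of tiles. TTGCAC was in 7.41% of centres and 2.93% of flanks (ratio 2.58, adjusted exact p = 1.84e-05), and in 4.56% of tiles.

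The other 3 were rarer or less stable. The GC box GGCGGG was in 4.21% of centres and 1.92% of flanks (ratio 2.25, adjusted exact p = 0.00875), and in 1.88% of tiles. TGACGT, a core of CREB and ATF sites, was in 5.03% of centres and 2.74% of flanks (ratio 1.83, adjusted exact p = 0.0177), and in 3.39% of tiles. GCGCGAA was in 1.56% of centres and 0.366% of flanks (ratio 4.25, 1.39 to 17.4, adjusted exact p = 0.0176), and in 0.588% of tiles. Without replicate 1 the ratio of TGACGT was 1.29 (adjusted exact p = 0.213) and that of GCGCGAA was 1.67 (adjusted exact p = 0.233), and without replicate 2 that of TGACGT was 1.37 (adjusted exact p = 0.143). Of the 6 motifs, 707 member centres, or 64.7%, held none, as did 56.0% of IDR promoter centres and 81.6% of unreplicated centres. The 6 were chosen by their excess in these same member centres, so the shares do not compare the sets on equal terms. CGAGACC and GGGCGG, in 10.1% and 7.90% of IDR promoter centres, are not among them.

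The nuclear receptor hexamer AGGTCA was in 2.20% of member centres and 2.01% of flanks (ratio 1.09, 0.586 to 2.04, adjusted exact p = 0.981), and in 2.57% of tiles. The related hexamer AAGTCA was in 2.74% of centres and 5.03% of flanks (ratio 0.528, adjusted exact p = 0.0176). TTTCAG, the consensus of the 3′ splice site, was in 13.7% of centres and 21.6% of flanks (ratio 0.566, adjusted exact p = 7.93e-06). The GATA factor site TGATAA was in 6.50% of centres and 9.70% of flanks (ratio 0.650, adjusted exact p = 0.0176). The TATA box TATAAA (7.04% of centres, 9.97% of flanks), the tract TTTTTT (39.4% of centres, 46.02% of flanks) and TTTGAA (22.3% of centres, 26.3% of flanks) were also less frequent. Without replicate 1, TTTCAG was the only one of these 6 that still passed, and the ratio of TATAAA was 1.05.

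**Figure D3:**
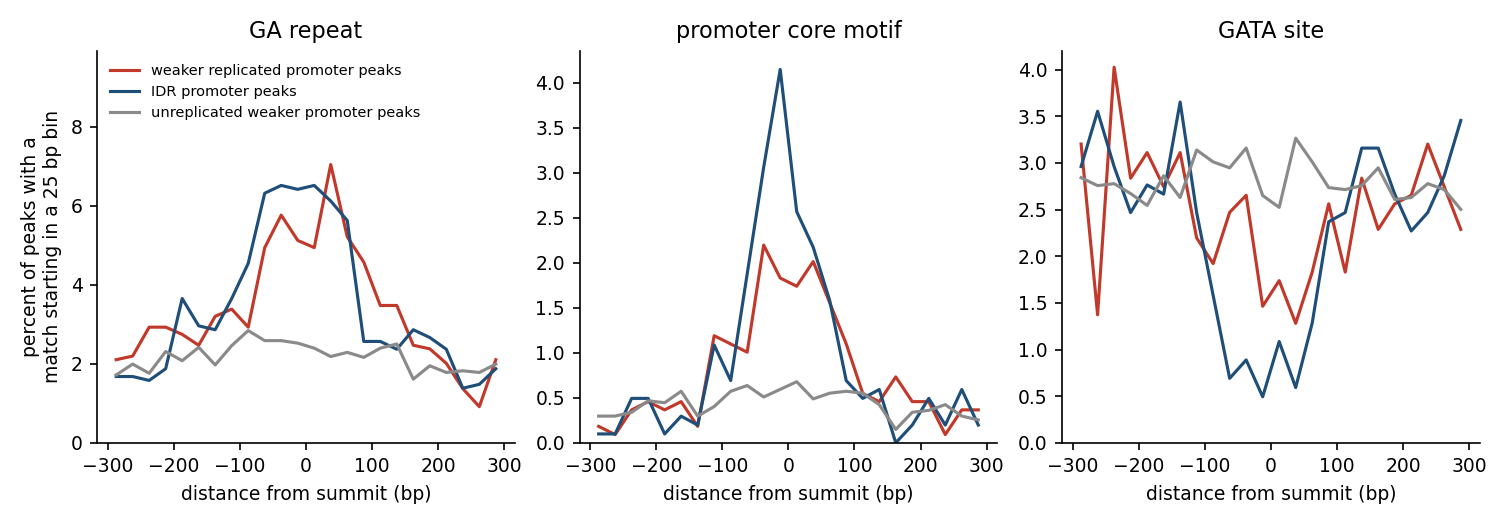
Percent of peaks with a match starting in each 25 bp bin (vertical) by distance from the summit in bp (horizontal), for the GA repeat (left), the promoter core motif (middle) and the GATA site (right), in weaker replicated promoter peaks (red), IDR promoter peaks (blue) and unreplicated weaker promoter peaks (grey). In the bin just before the summit the promoter core motif starts in 1.83% of members, 4.15% of IDR promoter peaks and 0.594% of unreplicated peaks, and the GATA site in 1.46%, 0.494% and 2.65% of them.

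GC content differed along the same lines, and its part in the motif differences was not tested. The median was 40% in member centres and 34% in their flanks, and 65.5% of members had a centre richer in GC than its flanks. IDR promoter centres had a median of 46% and unreplicated centres 34%, with flanks at 34% in each set, and all promoter tiles had 35%. Motif shares within ranges of centre GC content are given beside several of the comparisons that follow.

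Between sets, GAGAGA was in 18.4% of member centres and 19.7% of IDR promoter centres (odds ratio 0.916, 0.732 to 1.15, adjusted exact p = 0.518). GCGTCTC was in 6.95% of member centres and 11.2% of IDR promoter centres (odds ratio 0.595, 0.433 to 0.815, adjusted exact p = 0.0020). That call ended with a narrower promoter window, 300 bp before to 100 bp after the gene start (0.769, adjusted exact p = 0.258), with the upper 50% of each replicate list (0.767, adjusted exact p = 0.237) or of the members (0.801, adjusted exact p = 0.350), and against the lower 50% of IDR promoter peaks (0.730, adjusted exact p = 0.238). With centres of 45% GC or more, GCGTCTC was in 13.4% of 328 members (9.92 to 17.6) and 14.1% of 603 IDR promoter peaks (11.4 to 17.1), and GAGAGA was in 29.6% of these members (24.7 to 34.8) and 21.1% of these IDR promoter peaks (17.9 to 24.5). With a match in replicate 2 alone, the odds ratio of GAGAGA was 0.527 (adjusted exact p = 2.13e-10), and with one in replicate 1 alone it was 0.743 (adjusted exact p = 0.0075).

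The lowest odds ratio against IDR promoter peaks was that of CGAGACC. In the plot by signal it is named the GA-rich promoter motif, which is a label only, since it does not hold the repeat GAGAGA. It was in 16 of 1093 member centres, or 1.46% (0.839 to 2.37), and in 102 of 1013 IDR promoter centres, or 10.1% (8.28 to 12.1), an odds ratio of 0.133 (0.0726 to 0.228, adjusted exact p = 9.95e-18). In members its share did not pass against their flanks (1.10%, ratio 1.33, 0.592 to 3.09, adjusted exact p = 0.714), whereas IDR promoter peaks had 0.888% in their flanks (ratio 11.3, adjusted exact p = 2.84e-20). With centres of 45% GC or more, CGAGACC was in 3.35% of members (1.69 to 5.92) and 14.9% of IDR promoter peaks (12.2 to 18.02). The 3 other motifs less frequent in members were GGGCGG with 3.20% of member and 7.90% of IDR promoter centres (odds ratio 0.386), GGCGGG with 4.21% and 7.70% (0.527), and GCGCGAA with 1.56% and 3.65% (0.417). Both GC boxes can lie in the same stretch, so their calls are not independent. The call for GGCGGG ended with the upper 50% of each replicate list or of the members and against the lower 50% of IDR promoter peaks (odds ratios 0.636, 0.720 and 0.591), and that for GCGCGAA ended with summits within 50 bp, with the narrower window and with either upper 50% (0.501 to 0.642). In all, 5 of 20, or 25%, were less frequent and 4, or 20%, more frequent in members.

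The motifs more frequent in members than in IDR promoter peaks were rich in A and T. TAATTA, the core of homeodomain sites, was in 5.31% of member centres and 1.48% of IDR promoter centres (odds ratio 3.73, 2.07 to 7.13, adjusted exact p = 5.24e-06). TTTCAG was in 13.7% of member and 6.91% of IDR promoter centres (odds ratio 2.14), TGATAA in 6.50% and 2.86% (2.36), and TTTTTT in 39.4% and 26.2% (1.84). The call for TGATAA ended with the upper 50% of members (1.76, adjusted exact p = 0.150) and against the lower 50% of IDR promoter peaks (1.88, adjusted exact p = 0.053), and with centres of 200 bp those for TAATTA (1.45, adjusted exact p = 0.0637) and for TTTTTT (1.13, adjusted exact p = 0.286) ended. With centres of 35% to 44% GC, TTTTTT was in 40.95% of 442 members (36.3 to 45.7) and 38.3% of 337 IDR promoter peaks (33.1 to 43.7), and TAATTA was in 1.81% of these members and 2.08% of these IDR promoter peaks. Within that GC range the intervals of both motifs overlap between the sets. Of the 58 member centres with TAATTA, 46 were under 35% GC, where it was in 14.2% of 323 members (10.6 to 18.5) and 4.11% of 73 IDR promoter peaks (0.856 to 11.5). TTTTTT was there in 60.4% of members and 58.9% of IDR promoter peaks, and no test within GC ranges was run.

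Against unreplicated weaker promoter peaks, 6 of 20 motifs, or 30%, were more frequent in members and 7, or 35%, less frequent. GAGAGA was in 18.4% of member and 8.21% of unreplicated centres (odds ratio 2.52, 2.08 to 3.04, adjusted exact p = 1.14e-19). GCGTCTC was in 6.95% of member and 2.04% of unreplicated centres (odds ratio 3.596, 2.60 to 4.95, adjusted exact p = 8.02e-14). With centres of 35% to 44% GC, GAGAGA was in 19.2% of members (15.7 to 23.2) and 9.79% of 1573 unreplicated peaks (8.37 to 11.4). In the same range GCGTCTC was in 5.88% of members (3.88 to 8.50) and 2.67% of unreplicated peaks (1.93 to 3.59). The others more frequent in members were TTGCAC (odds ratio 1.74), the CREB core TGACGT (1.74), the GC box GGCGGG (1.73) and the E2F-like site GCGCGAA (2.00). Without replicate 1, GGCGGG had 1.12 (adjusted exact p = 0.649) and GCGCGAA 1.30 (adjusted exact p = 0.541), and only 3 motifs were less frequent.

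Among the members themselves, the shares of GAGAGA and GCGTCTC were higher, and that of TTTTTT lower, toward higher signal, as a description with no test. From the lowest to the highest tertile of pooled signal, GAGAGA was in 14.3%, 17.6% and 23.3% of centres, with 364, 364 and 365 members. GCGTCTC was in 3.85%, 7.14% and 9.86%, and TTTTTT was in 45.6%, 39.3% and 33.4%. The share of GCGTCTC in the highest tertile (7.004 to 13.4) overlaps that of the lower 50% of IDR promoter peaks, 9.29% (6.90 to 12.2). CGAGACC was in 0.824%, 1.37% and 2.19% of member tertiles, and its highest interval, 0.951 to 4.27, lies under that of the lower 50% of IDR promoter peaks, 5.03 to 9.71.

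**Figure D4:**
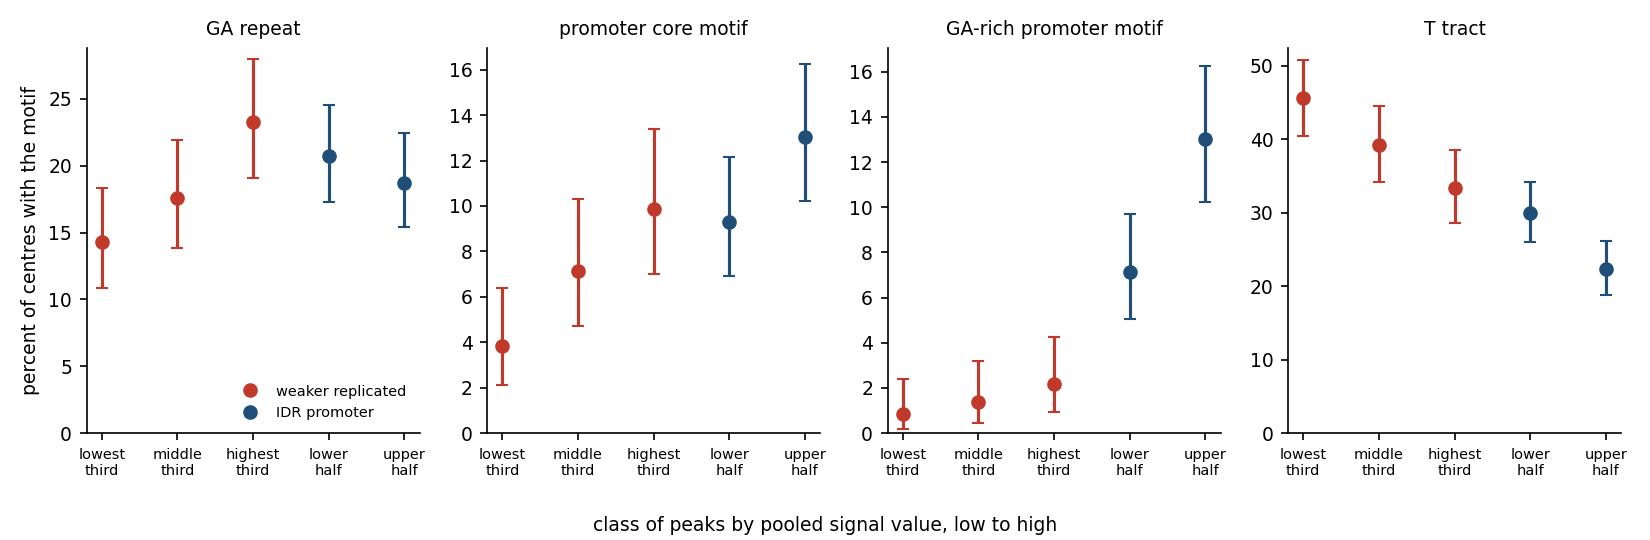
Percent of 100 bp centres that hold each motif (vertical, points with 95% Clopper-Pearson intervals) in tertiles of weaker replicated promoter peaks (red) and lower and upper 50% of IDR promoter peaks (blue), by pooled signal from low to high (horizontal). The motif labelled GA-rich promoter motif, CGAGACC, is at 0.824% to 2.19% in the members and at 7.11% and 13.02% in the IDR promoter peaks, and the T tract runs from 45.6% down to 22.3%.

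The members lay in the promoter windows of 1253 of 19973 protein-coding genes, or 6.27%, close to the 1336 genes, or 6.69%, with an IDR promoter peak. The genes were nearly all different. Only 24 genes had both, which is 1.92% of the genes with a member and 1.80% of those with an IDR promoter peak. A member overlaps no IDR peak, and the median peak width was 396 bp in both the pooled and the IDR list. At that width an IDR peak closes most or all of a promoter window to members. The small overlap in genes therefore follows largely from the rule. Of the 18637 genes without an IDR peak in the window, 1229, or 6.59%, had a member. Each of 915 members, or 83.7%, lay in the window of a single gene, while 173 members lay in windows of 2 genes and 5 in those of 3 or more. In 23 genes there were 2 members, and no gene had more.

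**Figure D5:**
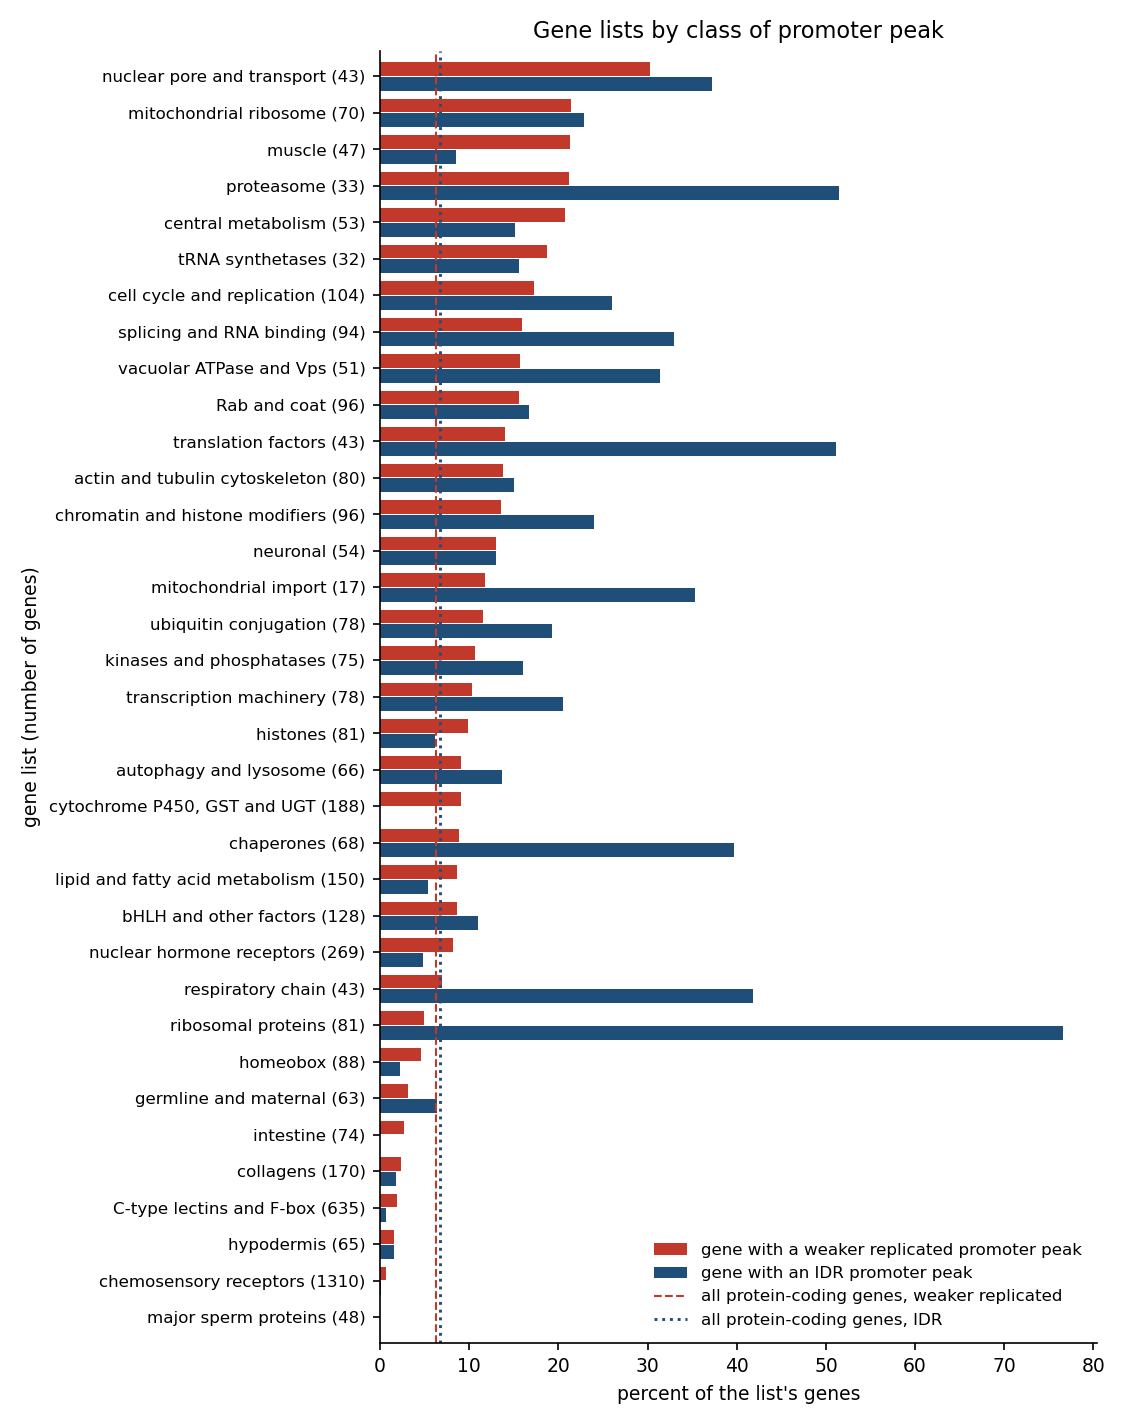
Percent of the protein-coding genes of each list (horizontal) with a weaker replicated promoter peak (red, upper bar) or an IDR promoter peak (blue, lower bar), for 35 lists ordered by the red bar with the number of genes in parentheses. The dashed and dotted lines are the shares over all protein-coding genes, 6.27% and 6.69%, and the ribosomal protein list has the widest gap, with 4.94% in red and 76.5% in blue.

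The gene lists are described by counts alone, and genes that share a peak are not independent. Genes for the cytosolic ribosome, which carried IDR peaks at 62 of 81 genes, had members at 4, namely rps-25, rps-6, rps-11 and rla-2. The peak of rps-11, 432 bp upstream, had signals of 42.2 in replicate 1 and 19.4 in replicate 2, and that of rps-25 had 20.2 in replicate 1 and 37.3 in replicate 2. The peak of rps-6 is shared with the deubiquitinase gene usp-3 (45.2 in replicate 1 and 22.1 in replicate 2). Of the 19 ribosomal protein genes without an IDR peak, these 4 are 21.1%, beside 6.59% over all such genes. Shares over a whole list count genes whose window an IDR peak largely closes to members. Among genes without an IDR peak, members were at 48.1% of 27 nuclear pore and transport genes and 43.8% of 16 proteasome genes. They were at 28.6% of 21 translation factor genes, 18.2% of 11 mitochondrial import genes, 12.2% of 41 chaperone genes and 12% of 25 respiratory chain genes.

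Genes for the mitochondrial ribosome had members at 15 of 70 genes, or 21.4% (95% interval 12.52 to 32.9), and IDR peaks at 16 other genes. The 4 strongest all lay in divergent promoters. They were mrpl-16, shared with clp-2, with 36.5 in replicate 1 and 28.2 in replicate 2, mrpl-34, shared with lid-1, with 31.1 in replicate 1 and 44.7 in replicate 2, mrpl-9 and mrps-18A. The peak of mrpl-9, shared with kin-3, the catalytic subunit of casein kinase II, had 29.5 in replicate 1 and 40.1 in replicate 2. The peak of mrps-18A, shared with ZC262.2, had 44.8 in replicate 1 and 19.1 in replicate 2. The aminoacyl-tRNA synthetases, which charge tRNAs, had members at 6 of 32 genes, led by aars-1, whose peak is shared with rga-1 (41.5 in replicate 1, 29.9 in replicate 2). Translation factors had members at 6 of 43 genes, among them the cap-binding gene ife-3, the initiation factor gene eif-2gamma and the release factor genes erfa-1 and erfa-3. Their signals were 25.1 to 33.9 in replicate 1 and 35.3 to 38.4 in replicate 2.

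Nuclear pore and transport genes had the highest share of any list, 13 of 43, or 30.2%, with a median pooled signal of 54.6 against 48.5 over all members. They comprise nxf-1, 8 nucleoporin genes (npp-1, npp-2, npp-5, npp-16, npp-22, npp-23, npp-24 and npp-27), the exportin gene xpo-2, the importin gene ima-2, the transportin gene imb-2 and ran-3, the exchange factor of the GTPase Ran. IDR peaks were at 16 other genes of the list. Close values were seen at npp-23, with 32.0 in replicate 1 and 32.8 in replicate 2. The peak that xpo-2 shares with nol-14 had 37.2 in replicate 1 and 25.02 in replicate 2. Matching within 50 bp left 7 of the 43, beside 4.06% of all genes, and requiring the upper 50% of members by signal left 8, beside 3.3% of all genes.

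Proteasome genes had members at 7 of 33 genes, or 21.2%, beside IDR peaks at 17 others. The core particle was represented by pas-5, pas-6, pbs-4 and pbs-5, and the regulatory particle by rpn-13, rpn-6.1 and rpt-6. The peak of pas-6, 211 bp upstream, had 35.1 in replicate 1 and 33.03 in replicate 2, and that of rpn-13 had 29.2 in replicate 1 and 49.9 in replicate 2. In the ubiquitin conjugation list, 9 of 78 genes had a member, among them the cullin genes cul-1, cul-2 and cul-3 and the ring-box gene rbx-1, which form ubiquitin ligases. Chaperones had members at 6 of 68 genes, or 8.82%, beside IDR peaks at 27. Among them were the prefoldin genes pfd-3 and pfd-4, and hsp-90, whose window also held an IDR peak.

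Splicing and RNA-binding genes had members at 15 of 94 genes, or 15.96%, and cell cycle and replication genes at 18, or 17.3% of their list. The first list included sut-6, the Sm protein gene snr-7 and the Lsm genes lsm-5 and lsm-6. The second included the licensing factor gene cdt-1 (34.1 in replicate 1, 27.2 in replicate 2), the origin recognition genes orc-3 and orc-4, the helicase genes mcm-3 and mcm-6, the Polo kinase gene plk-1 and the centromeric histone gene hcp-3. This list was drawn by gene name and also holds cdk-9 and cdc-73, which act in transcription elongation. Chromatin genes had members at 13 of 96 genes, or 13.5%, with set-2, an H3K4 methyltransferase, at 33.6 in replicate 1 and 37.997 in replicate 2. The subunit genes swsn-1, swsn-4, swsn-6 and snfc-5 of the SWI/SNF remodelling complex each had a member. Of 81 histone genes, 8 had one, and the peaks of his-31 with his-32 and of his-3 with his-4 are shared. Several histone genes are nearly the same in sequence, and the treatment of reads that fit more than 1 of them was not given in the sources used here.

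Vesicle traffic was represented by 15 of 96 genes in the Rab and coat list, or 15.6%, beside IDR peaks at 16 others. The gene snap-1, which recycles SNARE complexes, had 33.6 in replicate 1 and 42.3 in replicate 2, and sar-1, the GTPase of COPII coats, had 30.4 in replicate 1 and 38.3 in replicate 2. The peak of trpp-9, a TRAPP subunit gene, had the values furthest apart of the 4 highest, with 17.2 in replicate 1 and 47.8 in replicate 2. The vacuolar ATPase and Vps list had members at 8 of 51 genes, with vha-9 at 29.6 in replicate 1 and 45.2 in replicate 2. Central metabolism had members at 11 of 53 genes, or 20.8%, and IDR peaks at 8. Its members included hxk-2, the glycolytic genes gpi-1, aldo-2 and pgk-1, the S-adenosylmethionine synthetase genes sams-1 and sams-3, and the aconitase gene aco-2, which also had an IDR peak.

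In the muscle list, 10 of 47 genes, or 21.3% (10.7 to 35.7), had a member, and 4 of 47, or 8.51%, had an IDR peak. The member at unc-45, a myosin chaperone, had 34.1 in replicate 1 and 31.7 in replicate 2. The member at the actin gene act-1 lay 485 bp upstream, with 45.3 in replicate 1 and 25.6 in replicate 2, and that at myo-1, a pharyngeal myosin heavy chain, had 25.1 in replicate 1 and 42.1 in replicate 2. The others were deb-1 (vinculin), lev-11 (tropomyosin), unc-52 (perlecan), tnt-4 (troponin T), dys-1 (dystrophin), pat-12 and unc-60 (cofilin). With the window of 300 bp upstream and 100 bp downstream, 4 of the 47 genes had a member, beside 4.58% of all genes. Actin genes are also nearly the same in sequence, and the treatment of reads that fit several was not given in the sources used here.

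Nuclear hormone receptor genes, relatives of nhr-237, had members at 22 of 269 genes, or 8.18%, and IDR peaks at 13, beside 6.27% and 6.69% over all genes. The strongest was nhr-58, with 36.2 in replicate 1 and 29.7 in replicate 2, whose summit lay 34 bp upstream. Next came nhr-50 with 44.9 in replicate 1 and 26.3 in replicate 2, nhr-207 with 41.9 in replicate 1 and 27.4 in replicate 2, and nhr-66 with 21.9 in replicate 1 and 45.3 in replicate 2. The median pooled signal of the list, 44.3, was under the 48.5 of all members. The gene nhr-1 had a member and an IDR peak. With only the upper 50% of each replicate list by signal, 6 of the 269 genes had a member, beside 3.67% of all genes, and with a match in replicate 2 alone 69 had one, beside 17.1% of all genes.

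Genes of the cytochrome P450, UDP-glucuronosyltransferase and glutathione S-transferase families, which detoxify foreign compounds, had members at 17 of 188 genes, or 9.04%, and no IDR peak. By the limit of 3 counts, 0 of 188 allows a share of up to 1.60%. The highest were ugt-28 (24.3 in replicate 1, 22.03 in replicate 2), ugt-60 (26.2 and 28.9 in that order), cyp-13A2 (20.9 and 33.2) and gst-27 (32.6 and 20.6). The median pooled signal of the list was 42.9, against 48.5 over all members. In the upper 50% of members by pooled signal, 6 of the 188 genes had a member, beside 3.3% of all genes, and with the upper 50% of each replicate list 4 had one, beside 3.67% of all genes.

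Several lists had a lower share of genes with a member than the 6.27% of all genes. Chemosensory receptor genes had members at 8 of 1310, or 0.611%, and IDR peaks at 2. The C-type lectin and F-box list had members at 12 of 635 genes, or 1.89%, and collagens at 4 of 170, or 2.35%, namely dpy-17, col-165, col-10 and col-48. Major sperm protein genes had none, and by the limit of 3 counts 0 of 48 allows a share of up to 6.25%, while the 95% Clopper-Pearson upper limit is 7.40%, above the 6.27% of all genes. Intestine genes had members at 2 of 74 (erm-1 and pgp-2), hypodermis genes at 1 of 65 (dpy-17) and germline and maternal genes at 2 of 63 (car-1 and meg-3). Neuronal genes had members at 7 of 54, or 12.96% (95% Clopper-Pearson interval 5.37 to 24.9), led by rgef-1 (34.9 in replicate 1, 37.4 in replicate 2) and unc-115 (40.5 in replicate 1, 25.1 in replicate 2). With a match in replicate 2 alone, 93 chemosensory receptor genes had a member, and with one in replicate 1 alone 24 had one, beside 17.1% and 9.90% of all genes. Under the same changes collagens had members at 9.41% and 5.29% of genes, and the C-type lectin and F-box list at 8.19% and 3.78%.

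The remaining lists had members at 4.55% to 13.8% of their genes. Transcription factors of the bHLH, bZIP and related classes had members at 11 of 128 genes, among them hif-1, the hypoxia factor, crh-1, the CREB homolog, atf-4 and hlh-30, a TFEB homolog. Homeobox genes had members at 4 of 88, kinases and phosphatases at 8 of 75, autophagy and lysosome genes at 6 of 66, lipid and fatty acid metabolism at 13 of 150 and the respiratory chain list at 3 of 43, beside IDR peaks at 18 genes of that last list. The respiratory chain list was drawn by gene name and is incomplete. Its genes with a member were isp-1, cox-10 and asg-1, and it leaves out the complex I gene ndua-2, which also had a member. Transcription machinery had members at 8 of 78, actin and tubulin cytoskeleton at 11 of 80, and mitochondrial import at 2 of 17 (phb-1 and tin-13).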

How the data were processed

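Chromatin immunoprecipitation with sequencing of eGFP-tagged NHR-237 was done in 2 embryo samples of 1 group. The authors deposited lists of peaks and background regions for each replicate and for both together, made with a control alignment per the deposited file listings, and an IDR list. The aligner, the caller, their versions and the cutoff for IDR were not given in the sources used here. Each peak has the authors' signal value, which is not scaled between lists. The replicate and IDR lists also give the deposited −log10 q-value. The same column of the pooled list holds values slightly below 0, so it was treated as a deposited score and not used for any result. Depth is unknown, and the number of peaks limits the precision.

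Lists on ce11 were joined to the WBcel235 genome and Ensembl release 115 genes. Peak coordinates are 1-based. Summits were matched within 100 bp. The 2 replicate samples cannot give a test of conditions, so tests compare peaks. Annotation features and motifs were compared between peak sets with Fisher's exact test and within peaks with the exact McNemar test, with Benjamini-Hochberg adjustment over 8 features or 20 motifs and Clopper-Pearson intervals at 95%. Intervals cover counting error only. The tests were checked on simulated data. Members and the 35 gene lists, built from gene name patterns, were chosen with earlier results of these data known, so lists have counts and no test. Genes named are those of the 12 strongest and 3 weakest members, of members near the top of both replicate lists, and of up to 4 members per list by pooled signal. Other list genes were added after their values were seen. Alternatives changed the summit distance, the promoter window, the replicate required, signal limits, chromosomes and the motif windows. Comparison with the lower 50% of IDR promoter peaks, and the alternatives for motifs against unreplicated peaks, were added after seeing the data. Tables and tests were made in Python 3.11.15 with scipy 1.17.1, pandas 2.3.3 and numpy 2.4.6, and plots with matplotlib 3.10.9.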

Additional observations from a re-analysis of the deposited data

How the results depend on the processing

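The 1093 members became 702 with summits within 50 bp, 615 with the upper 50% of each replicate list, and 1837 to 3406 with 1 replicate left out. Genes with a member numbered 810, 734 and 1978 to 3420 under the same changes, and 660 with the upper 50% of members by signal. Motifs less frequent at member centres than in flanks, 6 in the report, numbered 1 with summits within 50 bp, 3 with the window of 300 bp upstream and 100 bp downstream, 2 on autosomes, 2 with flanks at 300 bp and 1 to 6 with 1 replicate left out. Motifs less frequent than in IDR promoter peaks, 5 in the report, numbered 3 with that window, 2 with the upper 50% of each replicate list, 2 with the upper 50% of members, 3 against the lower 50% of IDR promoter peaks and 8 to 9 with 1 replicate left out. Motifs more frequent than there, 4 in the report, numbered 2 with a centre of 200 bp. Motifs less frequent than in unreplicated peaks, 7 in the report, numbered 3 to 7 with 1 replicate left out. Features that differed from IDR promoter peaks, 6 in the report, numbered 3 with the upper 50% of members. The cause of these changes was not tested.

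A direction turned where the report or the alternative makes a call in 4 comparisons of a single motif or feature. The odds ratio of the tRNA, snoRNA or snRNA window against unreplicated peaks was 0.967 without replicate 1 and 2.48 without replicate 2, and that of a same-strand gene upstream was 0.807 with the upper 50% of each replicate list. The same-strand ratio, 1.02 and not called in the report, was also under 1 without a call with summits within 50 bp (0.978) or 200 bp (0.940), the narrower window (0.933), the upper 50% of members (0.896), autosomes (0.990) and without replicate 2 (0.900), and was 1.125 without replicate 1. The centre to flank ratio of TATAAA was 1.05 without replicate 1 and 0.749 without replicate 2, and that of TTTTTT was 1.04 with flanks at 300 bp. Divergent promoters in both comparisons, the central excess of GAGAGA, of the promoter core GCGTCTC, of the hexamer TTGCAC and of the GC box GGCGGG, and the lower shares of CGAGACC and of the GC box GGGCGG than in IDR promoter peaks passed under every alternative run. Taking the peak midpoint for the summit changed nothing, since 94.6% to 99.8% of summits are at the midpoint. No paired analysis was possible because there is 1 group. The lists of replicate 2 and of the pooled peaks both hold exactly 30000 entries, and that of replicate 1 holds 10872. Depth and any limit on list length are unknown, and their effect on the members was not tested. Against flanks, the calls for AAGTCA, for TTTGAA, for the CREB core TGACGT, for TGATAA, for GCGCGAA, for TATAAA and for TTTTTT each ended under more than 1 alternative.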

Other observations

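Some members also lay in the promoter windows of non-coding genes. The report compares the windows of tRNA, snoRNA and snRNA genes as a single feature of peaks, and counts by gene are given here. Of 612 tRNA genes 10, or 1.63%, had a member, as did 11 of 346 snoRNA genes (3.18%) and 7 of 261 miRNA genes (2.68%). So did 1 of 194 lincRNA genes (0.515%) and 0 of 129 snRNA genes. Over all protein-coding genes the share was 6.27%. These members were chosen for lying in a promoter of a protein-coding gene, so the counts cover only non-coding genes close to one.

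A pair of the 6 motifs with a central excess, or more, was held by 83 of 1093 members, or 7.59% (6.09 to 9.33), by 10.9% of IDR promoter peaks (9.01 to 12.9) and by 2.25% of unreplicated weaker promoter peaks (1.84 to 2.71). The 6 motifs were chosen by their excess in the member centres, so these shares do not compare the sets on equal terms. Some motifs overlap in sequence, so a single stretch of DNA can hold more than 1 of them.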
